A study of Homo sapiens with 27 samples.

Results

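SUM44 is a human cell line from an estrogen receptor positive invasive lobular breast carcinoma, and the SUM44 variants that grow under long-term estrogen deprivation, LTED-A and LTED-B, were compared directly with each other. The comparison was defined by the sample labels, which give 3 libraries to SUM44 LTED-A and 3 to SUM44 LTED-B, so 6 of the 27 libraries of the series belong to it. Both variants descend from SUM44F, the serum-adapted subline of SUM44PE, and no engineered allele or added drug is named for any of them. They were derived apart from each other by prolonged growth in IMEM with charcoal-stripped serum and are still kept in that medium. The 3 SUM44F libraries, used as the reference level, came from cells that normally grow with whole serum and that were deprived of hormone for 3 days before collection. Wells of a single culture were seeded in triplicate for each group, so the p-values measure the spread between wells of a culture, and each variant stands for 1 derivation.

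Estrogen receptor alpha, the product of ESR1, is a transcription factor that estradiol activates and that drives the growth of luminal breast cancers. Depriving cells of estrogen for a long time is used to model resistance to aromatase inhibitors, and cells that grow out may keep the receptor active without ligand, turn to growth factor receptors, or change their metabolism. Variants selected independently from the same parent share its starting genome and the selection, and the genes that differ between them show how far their outcomes separated.

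The LTED-A libraries held 39941907, 134882175 and 111689734 counts and the LTED-B libraries 34591553, 42580213 and 97697516. Replicates 2 and 3 of LTED-A differed by less than sampling noise, with a chi-square per degree of freedom of 0.312 where the other pairs within the 3 groups lay between 6.08 and 58.2, and were counted as 1 sample with their mean counts. LTED-A therefore has 2 samples and LTED-B has 3. The 2 LTED-A samples were less alike than the LTED-B libraries. Levels are counts per 1000000 scaled counts (CPM). Taking the genes that averaged 5 CPM or more in the variant concerned, 187 of 11766 differed more than 2-fold between the LTED-A samples, and 61 of 11665 between the highest and lowest LTED-B library. The levels of cell type markers in this paragraph are instead per 1000000 unscaled counts of each library. On that scale luminal epithelial markers summed to 9289 to 9436 CPM in LTED-A and 6609 to 6804 CPM in LTED-B. By the sign of the fitted change 9 of these 10 markers were higher in LTED-A and 1, EPCAM, in LTED-B. For MUC1 and GATA3 the sign rested on LTED-A replicate 1, at 25.5 and 553 CPM. Replicates 2 and 3 measured 6.57 and 6.63 CPM for MUC1 and 323 and 323 CPM for GATA3. These were below every LTED-B library (7.54 to 9.32 and 357 to 371 CPM), and ESR1 overlapped between the variants. Of the 10 markers only KRT8 and XBP1, higher in LTED-A, were called by the rule given below (20%, beside 7.42% of all genes tested). 4 of 7 basal markers (KRT5, KRT14, KRT17 and TP63), 8 of 10 immune markers and 6 of 7 fibroblast markers stayed under 1 CPM in all 6 LTED libraries. In bulk samples, fewer cells of a type and less RNA per cell cannot be told apart. SUM44F replicate 1 stood apart, with fibroblast markers summing to 375 CPM against 9.84 and 9.89 CPM in the other SUM44F libraries, so SUM44F levels are given by library where such genes are concerned.

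Genes past a 1.5-fold difference whose adjusted p in edgeR's quasi-likelihood test was under 0.001 were called different. Of 26834 genes tested, 1990 were called (7.42%), 1036 higher in LTED-B (3.86%) and 954 higher in LTED-A (3.56%). Of those higher in LTED-B, 954 were protein-coding and 44 lncRNA genes, against 804 and 93 of those higher in LTED-A. The median called gene was 2.10-fold higher in LTED-B or 2.25-fold higher in LTED-A, and more than 16-fold differences were found for 27 and 35 genes, respectively. Over all genes tested the median log2 fold change of LTED-B over LTED-A was -0.011, which the scaling of the libraries holds near 0. The LTED-A and LTED-B values did not overlap for 47.8% of all genes tested. Without LTED-A replicate 1, 503 and 662 genes were called, and without LTED-B replicate 1, 2 or 3 the counts were 598, 575 and 583 higher in LTED-B and 557, 534 and 521 higher in LTED-A, with no call turning direction. All log2 fold changes below are LTED-B over LTED-A with their standard error, and are negative where LTED-A was higher.

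The protein-coding gene with the largest change was LAMA2, which encodes the laminin alpha 2 chain of basement membranes (chr6:128883138-129516566, hg38). It measured 0 and 0.00880 CPM in the LTED-A samples and 5.76, 5.70 and 5.64 CPM in LTED-B. LTED-A held 1 LAMA2 count in all, which makes the ratio 874 with a 95% counting interval of 156 to 34559 (edgeR adjusted p = 1.47e-05). SUM44F measured 10.5, 4.08 and 3.92 CPM, so LTED-B lay above replicates 2 and 3 of SUM44F and below replicate 1, the library with fibroblast transcripts, and LTED-A was below all 3. Without LTED-A replicates 2 and 3 the adjusted p was 0.00122 and LAMA2 was no longer called.

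TAT, the tyrosine aminotransferase that opens tyrosine breakdown in the liver and a textbook glucocorticoid-induced gene (chr16:71565660-71577092), had the highest level among the genes at the head of the list higher in LTED-B. It measured 26.6 and 23.7 CPM in the LTED-A samples and 1510, 1483 and 1480.3 CPM in LTED-B, a log2 fold change of 5.89 ± 0.49 (edgeR adjusted p = 1.21e-05). SUM44F measured 0.653, 0.820 and 3.26 CPM, so both variants exceeded every parental library and LTED-B exceeded LTED-A 59.3-fold. TAT-AS1 overlaps TAT on the opposite strand, and which strand setting was used in counting is not given in the sources used here. S100A9, a subunit of the calcium-binding protein calprotectin, measured 0.447 and 0.836 CPM in the LTED-A samples and 73.3, 77.0 and 71.2 CPM in LTED-B, a log2 fold change of 6.70 ± 0.19 (edgeR adjusted p = 1.21e-08). Its SUM44F libraries measured 275, 247 and 234 CPM, above both variants. MYBPC1, a myosin-binding protein of slow muscle, measured 0.620 and 0.765 CPM in the LTED-A samples and 39.1, 38.5 and 36.3 CPM in LTED-B and was at 0.172 ± 0.0927 CPM (SD, n = 3) in SUM44F.

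The other protein-coding genes at the head of the list higher in LTED-B were the muscle RING finger gene TRIM55 (5.34 ± 0.15), the phospholipid phosphatase relative PLPPR3 (5.14 ± 0.24), the membrane protein gene PDZK1IP1 (5.03 ± 0.20), and BHLHA15, a transcription factor of secretory cells (4.55 ± 0.23). They were followed by CIB2, a calcium and integrin binding protein (4.54 ± 0.33), the chromatin reader L3MBTL3 (4.21 ± 0.26), BEND7 (3.94 ± 0.21) and the unnamed gene ENSG00000258465 (4.56 ± 0.37). The last overlaps DCAF8 and PEX19 on the same strand, so its counts depend on how reads were divided. The LTED-B means of these genes lay between 5.02 and 14.04 CPM, and both LTED-A samples were under 0.5 CPM for each. Leaving out 1 LTED-A sample moved the fold of S100A9, CIB2, L3MBTL3 and ENSG00000258465 by more than 1.5 times, with log2 fold changes of 6.44 to 7.37, 4.16 to 5.57, 3.88 to 4.96 and 4.28 to 5.17, and all 4 stayed called.

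In the other direction, SYT1, the calcium sensor of synaptic vesicle release (chr12:78863993-79452008). Measured measured 76.6 and 80.6 CPM in the LTED-A samples and 0.603, 0.694 and 0.733 CPM in LTED-B. Its log2 fold change was -6.82 ± 0.097 (edgeR adjusted p = 1.11e-10), and SUM44F, at 181, 192 and 186 CPM, was above both variants. REPS2, an endocytosis adaptor (chrX:16946658-17153272). Measured measured 608 and 625 CPM in the LTED-A samples and 21.4, 21.8 and 21.6 CPM in LTED-B (-4.84 ± 0.091, edgeR adjusted p = 6.49e-10). Its SUM44F level of 504 ± 21.9 CPM (SD, n = 3) was close to that of LTED-A, so the low level was found in LTED-B alone of the 3 groups.

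Neuropeptide Y receptor genes were among the most separated. NPY1R, which encodes a Gi-coupled receptor for neuropeptide Y and is induced by estrogen in breast cells, measured 3092 and 4148 CPM in the LTED-A samples and 113, 109 and 120 CPM in LTED-B, a 31.8-fold difference (-4.99 ± 0.15, edgeR adjusted p = 1.90e-08). SUM44F measured 483, 505 and 524 CPM, between the variants and overlapping neither. NPY5R, the gene of a second neuropeptide Y receptor next to it on chromosome 4, measured 49.2 and 62.3 CPM in the LTED-A samples and 1.81, 1.51 and 1.89 CPM in LTED-B (-4.99 ± 0.14, edgeR adjusted p = 1.21e-08), with SUM44F again between at 7.45, 7.94 and 7.95 CPM. The annotated genes overlap on opposite strands, chr4:163323962-163344832 and chr4:163343892-163351934, so reads of the abundant NPY1R transcripts and of NPY5R may not be fully separated.

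Because this pair changed to the same extent, the 250 bases before 1 RefSeq start site of each gene are shown beside those of LAMA2, which changed most in the other direction. They are printed 5′ to 3′ on the gene's strand in lower case, and capitals mark AGGTCA or its reverse complement TGACCT, a core sequence bound by estrogen and related nuclear receptors, and AGAACA or its reverse complement TGTTCT, one bound by glucocorticoid and progesterone receptors. The positions in GRCh38.p14 are chr4:163332597-163332846 on the minus strand for NPY1R, chr4:163343642-163343891 on the plus strand for NPY5R and chr6:128882888-128883137 on the plus strand for LAMA2.
NPY1R: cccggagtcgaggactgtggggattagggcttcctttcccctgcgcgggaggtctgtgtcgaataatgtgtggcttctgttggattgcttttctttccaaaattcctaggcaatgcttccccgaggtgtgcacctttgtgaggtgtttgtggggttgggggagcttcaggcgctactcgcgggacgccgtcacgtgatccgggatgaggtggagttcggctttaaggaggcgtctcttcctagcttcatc
NPY5R: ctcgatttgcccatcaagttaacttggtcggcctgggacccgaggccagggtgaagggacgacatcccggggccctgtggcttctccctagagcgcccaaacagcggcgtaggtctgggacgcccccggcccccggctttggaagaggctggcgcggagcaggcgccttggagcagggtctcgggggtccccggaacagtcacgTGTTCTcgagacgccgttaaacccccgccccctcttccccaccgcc
LAMA2: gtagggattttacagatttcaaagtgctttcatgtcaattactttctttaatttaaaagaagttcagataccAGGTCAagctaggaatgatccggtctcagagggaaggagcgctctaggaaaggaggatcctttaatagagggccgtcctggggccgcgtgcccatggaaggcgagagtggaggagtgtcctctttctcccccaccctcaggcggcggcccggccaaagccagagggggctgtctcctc
No match was found before NPY1R, 1 TGTTCT begins 46 bases before the NPY5R start shown, and 1 AGGTCA begins 178 bases before the LAMA2 start. Among all 35116 RefSeq windows of the same length, 12.1% hold AGGTCA and 12.4% hold AGAACA on either strand, so single matches are common. RefSeq lists 2 NPY5R starts, and the window of the other holds neither motif. The NPY1R window lies inside the annotated NPY1R gene given above, so bases before that gene's annotated 5′ end were not searched. A match describes the letters and is not a bound site, and no binding was measured here.

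Further genes at the head of the list higher in LTED-A were the replication-dependent histone gene H3C11 (-5.98 ± 0.22), the carboxypeptidase gene CPB1 (-5.13 ± 0.13), and UBD, which encodes the ubiquitin-like protein FAT10 (-5.09 ± 0.14). They were followed by the endogenous retroviral envelope gene ERVMER34-1 (-4.70 ± 0.33), MS4A7 (-4.06 ± 0.15), the secreted EGF-domain protein SCUBE3 (-3.97 ± 0.18) and CDSN, which encodes corneodesmosin (-3.88 ± 0.23). CPB1 measured 60.4 and 73.7 CPM in the LTED-A samples and 1.84, 1.93 and 1.94 CPM in LTED-B, with 7.25 ± 0.694 CPM (SD, n = 3) in SUM44F. CDSN measured 155 and 97.0 CPM in the LTED-A samples and 7.69, 9.69 and 8.22 CPM in LTED-B. SCUBE3 measured 68.4 and 47.3 CPM in the LTED-A samples and 4.07, 3.52 and 3.51 CPM in LTED-B. LTED-A replicate 1 was the higher LTED-A sample for both. H3C11 has near-identical copies, and UBD and CDSN lie in the MHC region, of which the Ensembl annotation of hg38 holds alternative copies, so reads may have been split among copies.

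Among lncRNA genes, LINC02303 had the largest change. It measured 28.8 and 31.1 CPM in the LTED-A samples and 0.0603, 0.0743 and 0.0875 CPM in LTED-B, a log2 fold change of -8.54 ± 0.15 (edgeR adjusted p = 3.29e-10). The LTED-B libraries held only 2 to 8 LINC02303 counts each, so the size of the fold is uncertain. SUM44F measured 41.7 ± 2.39 CPM (SD, n = 3), so LTED-A was near the parental level. PCOTH (-3.74 ± 0.17) and ENSG00000251567 (-3.63 ± 0.18) followed. In the other direction stood the miRNA host genes MIR17HG and DLEU2, described with their stretch of chromosome 13 below, and ENSG00000247134 (1.56 ± 0.16).

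**Figure D1:**
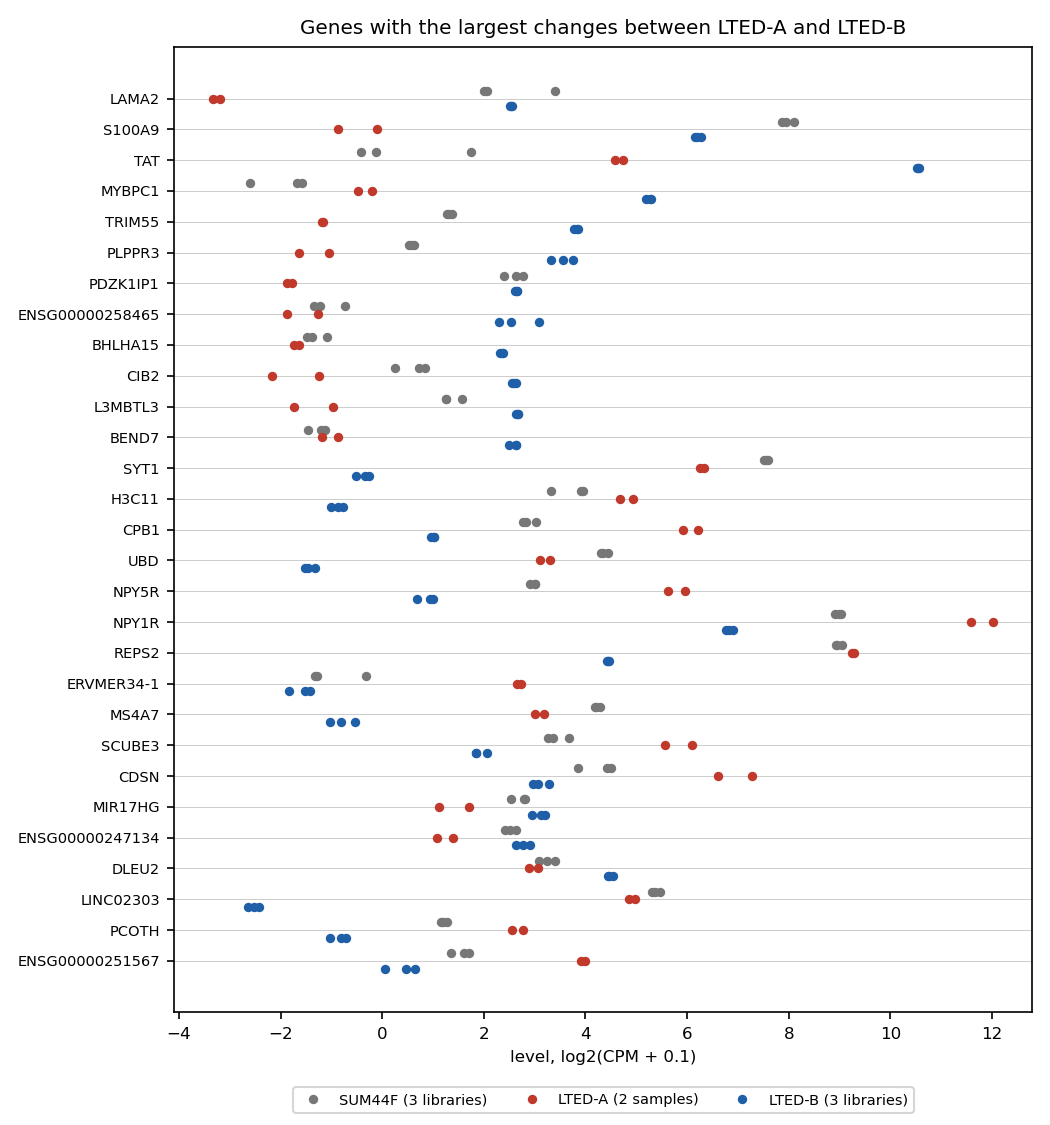
Level of 23 protein-coding and 6 lncRNA genes with the largest changes, as log2(CPM + 0.1) on the horizontal axis, with 1 point for each SUM44F library (grey), LTED-A sample (red) and LTED-B library (blue). These genes were chosen among called genes whose LTED-A and LTED-B libraries did not overlap, so the separation of red and blue points follows from the choice. NPY1R lay at 3092 to 4148 CPM in LTED-A and 109 to 120 CPM in LTED-B. Grey points lie above, below or between the red and blue points.

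The called genes were unevenly placed along the genome. Windows of 40 consecutive genes averaging 5 CPM or more were laid along each chromosome. Where successive windows had medians past 0.5 on the log2 scale, in the same direction, they were joined, giving 9 stretches on 5 chromosomes. Of 11668 genes at this level, 780 (6.68%) lay in the stretches, and they held 418 of the 1468 called genes (28.5%). In the stretches 53.6% of genes were called, against 9.64% outside them and 12.6% of all genes at this level. The windows were chosen by their medians, so these shares describe the stretches and are no test of them.

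Chromosome 13 was divided into parts that moved in opposite directions. From 19633659 to 38363619 the median over 60 genes was a log2 fold change of -1.52, and 51 were called, all higher in LTED-A. Relative to the SUM44F mean, the median gene of this stretch was at a log2 ratio of 1.51 and 1.68 in the LTED-A samples and 0.23, 0.26 and 0.18 in LTED-B, so the stretch was raised in LTED-A and near the parental level in LTED-B. From 45002150 to 114272723 the 100 genes had a median of 0.95, with 74 called higher in LTED-B and 1 higher in LTED-A. There the LTED-A samples were below SUM44F, at -0.80 and -0.71, and the LTED-B libraries lay at 0.092, 0.078 and 0.087.

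The chromosome 13 stretch that was higher in LTED-A held the DNA repair gene BRCA2, which measured 259.6 and 277 CPM in the LTED-A samples and 78.9, 68.6 and 64.5 CPM in LTED-B (-1.93 ± 0.094, edgeR adjusted p = 3.25e-07) and 42.2 ± 2.37 CPM (SD, n = 3) in SUM44F. ATP8A2, which encodes a phospholipid flippase, measured 989 and 988 CPM in the LTED-A samples and 263, 263 and 258 CPM in LTED-B (-1.92 ± 0.084). The arginine transporter gene SLC7A1 measured 415 and 287 CPM in the LTED-A samples and 85.5, 93.3 and 87.7 CPM in LTED-B (-1.98 ± 0.14). LTED-A was the higher variant for all 3 genes. The largest changes there were those of TNFRSF19, a TNF receptor family member and WNT target (-3.76 ± 0.11), the mitochondrial peptidase gene MIPEP (-3.35 ± 0.087), which overlaps PCOTH on the opposite strand, and ENSG00000273167 (-2.36 ± 0.30). The ribosomal protein gene RPL21 (-1.64 ± 0.13) and the chromatin protein gene HMGB1 (-1.04 ± 0.13) were also higher in LTED-A. HMGB1 was not called without any 1 LTED-B library (log2 fold changes over all single omissions of -1.28 to -0.79), and ENSG00000273167 not without any 1 LTED sample (-2.45 to -2.28).

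In the chromosome 13 stretch that was higher in LTED-B, TFDP1, the dimerization partner of E2F factors, measured 40.8 and 43.7 CPM in the LTED-A samples and 100.2, 103 and 106 CPM in LTED-B (1.28 ± 0.089, edgeR adjusted p = 3.36e-06). The lysosomal membrane gene LAMP1 (1.06 ± 0.099), the endosomal gene TM9SF2 (1.10 ± 0.11), CAB39L, a partner of the kinase LKB1 (1.91 ± 0.097), TEX30 (2.22 ± 0.13) and the epithelial transcription factor KLF5 (1.78 ± 0.14) were called as well, while the highly expressed TPT1 was not (0.27 ± 0.13, edgeR adjusted p = 0.186). LAMP1 missed the threshold without LTED-A replicate 1 (adjusted p = 0.00102). MIR17HG (chr13:91347686-91397592). The host gene of the miR-17 to miR-92a cluster, measured 2.06 and 3.18 CPM in the LTED-A samples and 9.11, 8.57 and 7.59 CPM in LTED-B (1.66 ± 0.19, edgeR adjusted p = 1.28e-04). DLEU2 (chr13:49956670-50125720). The host gene of miR-15a and miR-16, measured 7.35 and 8.33 CPM in the LTED-A samples and 23.1, 21.9 and 21.5 CPM in LTED-B (1.49 ± 0.12, edgeR adjusted p = 9.72e-06). MIR17HG was not called without LTED-A replicate 1 (adjusted p = 0.00107), and DLEU2 overlaps DLEU1, KCNRG and TRIM13 on the opposite strand.

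The mature miRNAs that RefSeq places inside these host genes are printed because they are the known products of the transcripts that changed. Mature miRNAs were not measured here. Capitals mark the seed, bases 2 to 8 from the 5′ end, by which a miRNA pairs with its targets.
miR-17-5p: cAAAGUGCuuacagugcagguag
miR-20a-5p: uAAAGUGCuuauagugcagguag
miR-18a-5p: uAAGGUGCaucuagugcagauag
miR-19a-3p: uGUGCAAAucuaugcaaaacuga
miR-19b-3p: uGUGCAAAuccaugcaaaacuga
miR-92a-3p: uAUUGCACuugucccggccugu
miR-15a-5p: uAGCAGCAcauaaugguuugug
miR-16-5p: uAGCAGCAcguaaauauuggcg
The first pair share the seed AAAGUGC, miR-19a-3p and miR-19b-3p share GUGCAAA, and the DLEU2 pair share AGCAGCA, so the 8 miRNAs carry 5 seeds.

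Chromosome 6 held a stretch of each kind side by side. From 83147324 to 121334745 the 80 genes had a median of -0.65 (40 called higher in LTED-A, 4 in LTED-B), and from 122399551 to 154510685 the 80 genes had a median of 1.10 (55 called higher in LTED-B, 2 in LTED-A). In both, LTED-B was the variant away from SUM44F: its libraries lay at log2 ratios of -0.57, -0.62 and -0.59 in the former and 0.95, 0.90 and 0.95 in the latter, against -0.069 and 0.11, and -0.19 and -0.033, in LTED-A. The latter stretch spans LAMA2 and L3MBTL3, which have means under 5 CPM and so did not enter the windows. The phosphodiesterase gene ENPP1, an inhibitor of insulin receptor signalling, measured 105 and 118 CPM in the LTED-A samples and 747, 718 and 706 CPM in LTED-B there (2.70 ± 0.10, edgeR adjusted p = 5.32e-08). IL20RA, an interleukin receptor subunit, measured 24.1 and 29.4 CPM in the LTED-A samples and 182, 182 and 176 CPM in LTED-B (2.74 ± 0.096).

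Larger still were the changes of the GTPase activator ARHGAP18 (3.11 ± 0.11) and the cytoskeletal EPB41L2 (2.87 ± 0.094), and the ribosomal protein gene RPS12 averaged 550 ± 110 CPM (SD, n = 2) in the LTED-A samples and 2171 ± 80.4 CPM (SD, n = 3) in LTED-B (1.98 ± 0.16). ESR1 lies near the far end of the same stretch (chr6:151656691-152129619) and was not called, as given below. With windows of 20 genes, ESR1 fell outside that stretch and inside one higher in LTED-A (151364115 to 169702067, median log2 fold change -0.59). The Notch target HEY2, also inside the stretch of 80 genes, was called in the opposite direction (-2.48 ± 0.20). In the neighbouring stretch higher in LTED-A, the sialomucin gene CD164 measured 307 and 362 CPM in the LTED-A samples and 127, 118 and 122 CPM in LTED-B (-1.45 ± 0.09). The membrane substrate of protein kinase C MARCKS measured 41.8 and 45.5 CPM in the LTED-A samples and 9.05, 8.30 and 8.83 CPM in LTED-B (-2.32 ± 0.084). The cannabinoid receptor gene CNR1 measured 127 and 143 CPM in the LTED-A samples and 43.4, 41.5 and 39.7 CPM in LTED-B (-1.70 ± 0.082). CD24 at -0.68 ± 0.12 (edgeR adjusted p = 0.00193) and SYNCRIP at -0.50 ± 0.075 were not called, though CD24 was without LTED-A replicate 1, at -0.86.

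The stretch on chromosome 22, from 15282557 to 38214778, was the one with most genes. Of 160 genes 155 had the same sign, and 85 were called, all higher in LTED-A, with a median of -0.76. LTED-A was the variant away from SUM44F, at 0.62 and 0.65, against -0.15, -0.097 and -0.13 in LTED-B. XBP1, a transcription factor of the secretory pathway and a partner of estrogen receptor signalling, measured 1100 and 1359.8 CPM in the LTED-A samples and 652, 648 and 663 CPM in LTED-B (-0.91 ± 0.11, edgeR adjusted p = 1.50e-04). The replication genes CDC45 (-1.25 ± 0.10) and MCM5 (-0.83 ± 0.091), the checkpoint kinase gene CHEK2 (-0.94 ± 0.11), the citrate carrier gene SLC25A1 (-1.16 ± 0.11) and non-muscle myosin MYH9 (-0.86 ± 0.11) lie in it and were called. The largest changes were those of the proline dehydrogenase gene PRODH (-2.42 ± 0.12), SUSD2 (-2.18 ± 0.15) and the inositol phosphatase gene INPP5J (-1.97 ± 0.20). XBP1 lost its call without any 1 LTED-B library (log2 fold changes -1.08 to -0.74), and MYH9 without any of these or LTED-A replicate 1 (-0.89 to -0.84). The call of MCM5 was lost without replicate 1 of either variant (-0.89 to -0.78) and that of CHEK2 without LTED-A replicates 2 and 3 or LTED-B replicate 1 or 2 (-1.05 to -0.83).

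At the start of chromosome 2, from 38814 to 15634346, 24 of 40 genes were called higher in LTED-B and 2 higher in LTED-A (median 0.92). ODC1, the rate-limiting enzyme of polyamine synthesis, measured 144 and 176 CPM in the LTED-A samples and 942, 961 and 934 CPM in LTED-B (2.56 ± 0.12, edgeR adjusted p = 2.45e-07) and 75.9 ± 4.95 CPM (SD, n = 3) in SUM44F. RRM2, the small subunit of ribonucleotide reductase, measured 36.4 and 39.3 CPM in the LTED-A samples and 133, 129 and 124 CPM in LTED-B (1.76 ± 0.075, edgeR adjusted p = 1.38e-07). The ubiquitin ligase gene RNF144A measured 1.12 and 0.941 CPM in the LTED-A samples and 10.7, 11.1 and 9.37 CPM in LTED-B (3.35 ± 0.26). The highly expressed DDX1 was not called (0.14 ± 0.095). Further along chromosome 2, from 37208875 to 47387601, the median was 0.50 and 10 of 40 genes were called higher in LTED-B, among them CYP1B1, which hydroxylates estradiol (79.4 and 76.8 CPM in the LTED-A samples and 185, 201 and 192 CPM in LTED-B), and PLEKHH2 (1.92 ± 0.14). The most highly expressed genes of this stretch, CALM2 (0.75 ± 0.14), LRPPRC (0.56 ± 0.090) and EPCAM (0.35 ± 0.11), were not called.

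On chromosome 17 the stretches from 50962174 to 67366605 and from 73232233 to 82730328 had medians of 0.53 and 0.57, with 26 of 80 and 44 of 140 genes called, all higher in LTED-B. The protein disulfide isomerase gene P4HB measured 259.6 and 271 CPM in the LTED-A samples and 731, 793 and 793 CPM in LTED-B (1.54 ± 0.11, edgeR adjusted p = 4.51e-06). The survivin gene BIRC5 (1.06 ± 0.10), the secreted glycoprotein gene LGALS3BP (1.57 ± 0.11), the stress sensor gene ERN1 (1.24 ± 0.10), YPEL2 (1.76 ± 0.11) and GDPD1 (1.83 ± 0.13) were called too. The clathrin heavy chain gene CLTC (0.49 ± 0.10), SRSF1 (0.37 ± 0.096), the actin gene ACTG1 (0.29 ± 0.13) and the fatty acid synthase gene FASN (0.34 ± 0.14), all highly expressed, were not called. Over 18 other fits, the median of the later chromosome 2 stretch fell to 0.5 or below in 9 and that of the earlier chromosome 17 stretch in 4, and the other 7 stretches stayed past 0.5 in every fit.

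**Figure D2:**
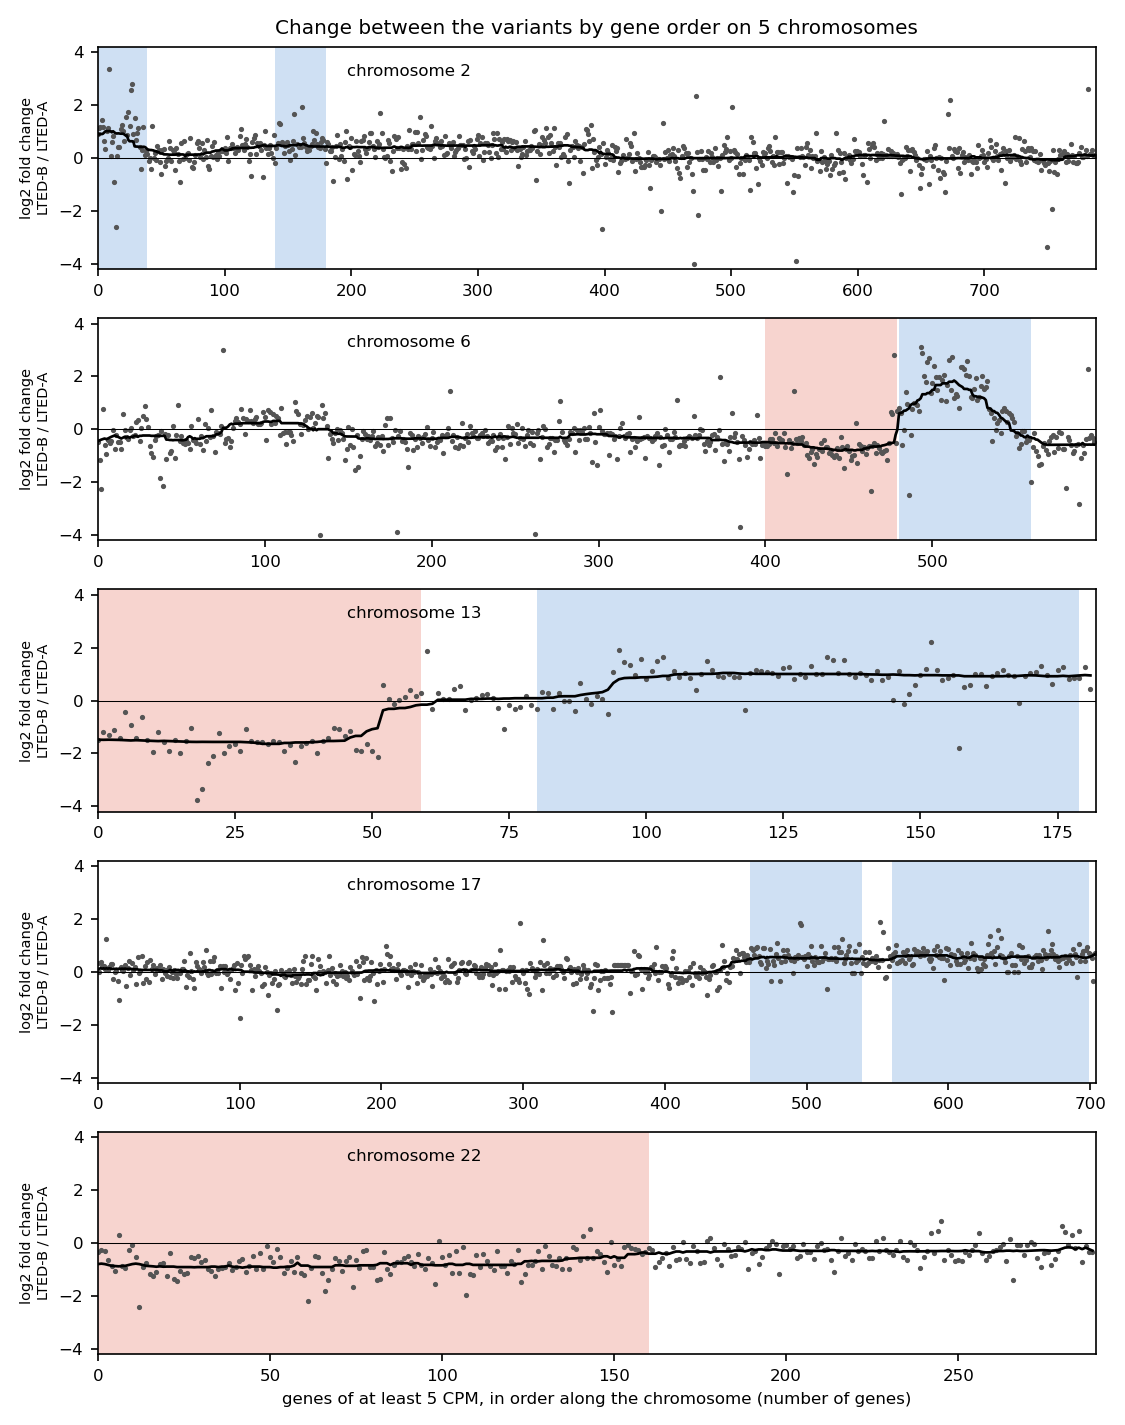
Log2 fold change of LTED-B over LTED-A (vertical axis, values beyond -4 or 4 drawn at the limit) for genes of at least 5 CPM in their order along 5 chromosomes (horizontal axis, number of genes), with 1 point a gene, the running median of 41 genes as a black line, and stretches shaded blue where LTED-B and red where LTED-A was higher. On chromosome 13 the line steps from about the stretch median of -1.52 to that of 0.95, and on chromosome 6 it peaks inside the blue stretch and falls back before its end.

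**Figure D3:**
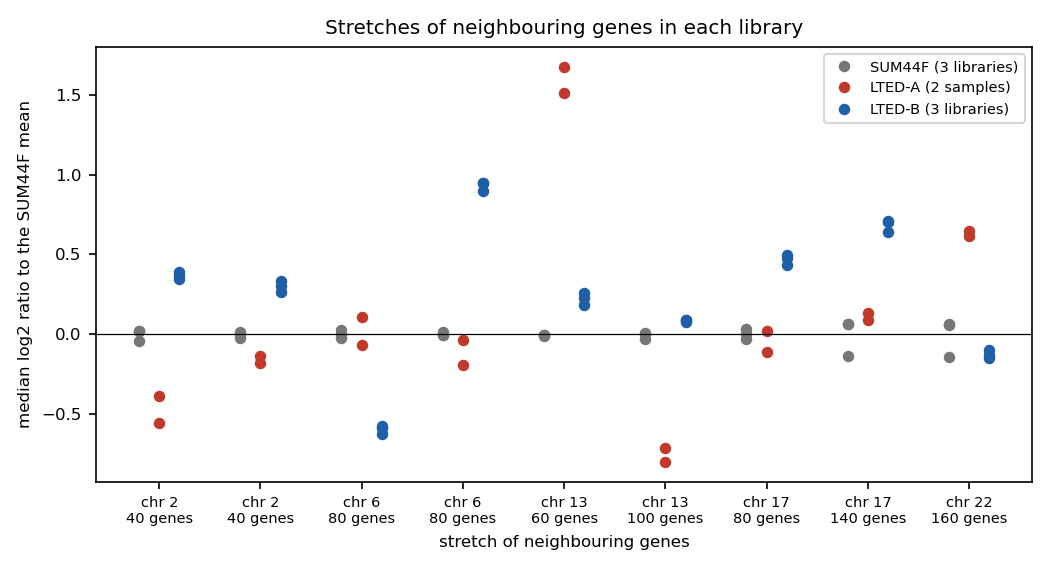
Median log2 ratio of the genes of each stretch to the SUM44F mean (vertical axis, log2 of CPM + 0.5), with 1 point for each SUM44F library (grey), LTED-A sample (red) and LTED-B library (blue), for the 9 stretches in genome order. LTED-A stands away from SUM44F in both chromosome 13 stretches and in that of chromosome 22, and LTED-B in those of chromosomes 6 and 17, while the first chromosome 2 stretch has LTED-A below and LTED-B above it.

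Genes of known pathways were read from 47 lists. Of their 1144 distinct members tested, 196 were called (17.1%, beside 7.42% of all genes tested and 12.6% of genes of at least 5 CPM), and 30 of the called members lie within the stretches above. Most lists had called members in both directions.

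The level of the estrogen receptor gene overlapped between the variants. ESR1 measured 1379 and 1429.6 CPM in the LTED-A samples and 1382, 1369 and 1324 CPM in LTED-B (-0.048 ± 0.11, edgeR adjusted p = 0.810), both above the SUM44F libraries at 576, 599.9 and 540.4 CPM. The pioneer factor FOXA1 (-0.24 ± 0.10), GATA3 (-0.23 ± 0.16), the classical target TFF1 (-0.071 ± 0.13) and the cyclin gene CCND1 (-0.14 ± 0.12) were not called. GREB1, an estrogen-induced cofactor, was also not called, at 46.4 and 42.5 CPM in the LTED-A samples and 57.6, 61.1 and 61.5 CPM in LTED-B (0.44 ± 0.086, edgeR adjusted p = 0.00398). GATA3 measured 548 and 350.2 CPM in the LTED-A samples and 373, 391.7 and 387 CPM in LTED-B, so the LTED-A samples differed more from each other than the groups did. PGR, the progesterone receptor gene, was under 0.3 CPM in every LTED sample and was not called, against 9.58, 1.33 and 1.53 CPM in SUM44F.

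Around the receptor, 2 of 20 receptors and partners were called higher in LTED-B and 3 higher in LTED-A (list median -0.23). CITED2, a coactivator interacting protein, measured 36.3 and 39.6 CPM in the LTED-A samples and 80.5, 86.7 and 94.5 CPM in LTED-B (1.20 ± 0.10). ESRRG, an estrogen-related orphan receptor, was higher in LTED-B (1.60 ± 0.21), a call lost without any 1 LTED sample (log2 fold changes 1.47 to 1.71). Of 37 estrogen-induced genes tested, 4 were called higher in LTED-B and 5 higher in LTED-A, with a list median of -0.047. SERPINA3, a secreted protease inhibitor, measured 10.1 and 10.6 CPM in the LTED-A samples and 94.4, 105 and 105 CPM in LTED-B (3.29 ± 0.17, edgeR adjusted p = 5.16e-07). The trefoil peptide gene TFF3 measured 355 and 383 CPM in the LTED-A samples and 88.2, 97.6 and 98.0 CPM in LTED-B (-1.96 ± 0.11, edgeR adjusted p = 8.11e-07). AGR3 measured 2.46 and 3.34 CPM in the LTED-A samples and 0.543, 0.545 and 0.514 CPM in LTED-B (-2.46 ± 0.17).

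**Figure D4:**
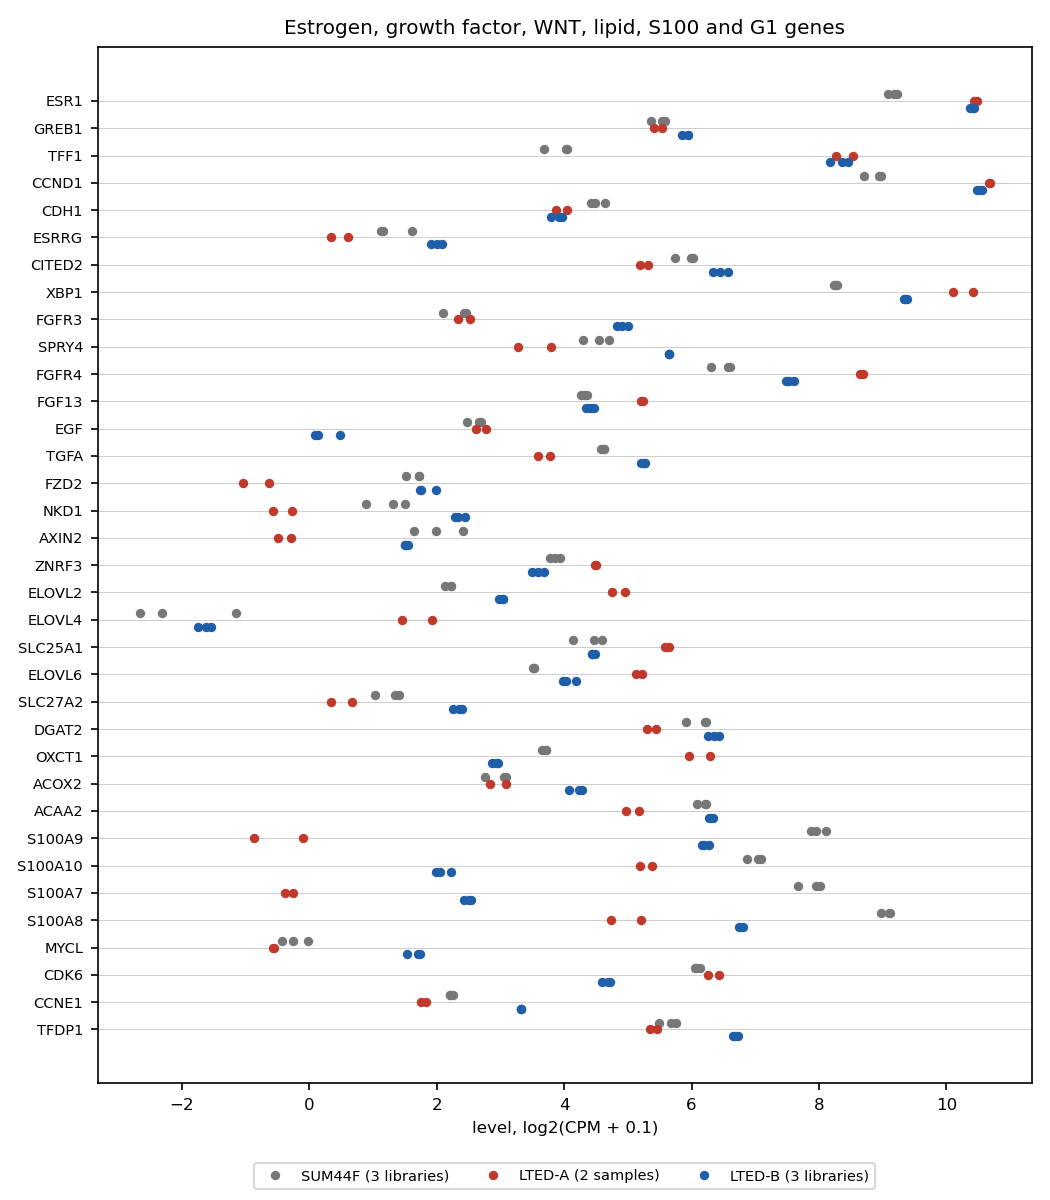
Level of 5 estrogen-related or lobular marker genes and of the called genes named from the estrogen receptor, FGF, ERBB, WNT, fatty acid, S100 and G1 lists, as log2(CPM + 0.1) on the horizontal axis, with 1 point for each SUM44F library (grey), LTED-A sample (red) and LTED-B library (blue). The red and blue points of ESR1 overlap at 1324 to 1430 CPM. Those of the called genes shown are separate, as for all 1036 genes called higher in LTED-B and all 954 called higher in LTED-A.

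FGF receptors, which carry fibroblast growth factor signals into the RAS pathway, changed in both directions. FGFR3 measured 4.96 and 5.66 CPM in the LTED-A samples and 28.4, 29.98 and 32.0 CPM in LTED-B (2.50 ± 0.14, edgeR adjusted p = 7.40e-07). FGFR4 measured 398 and 414 CPM in the LTED-A samples and 179, 185 and 196 CPM in LTED-B (-1.12 ± 0.099, edgeR adjusted p = 1.80e-05), with SUM44F at 4.93 ± 0.667 CPM and 90.2 ± 9.98 CPM (SD, n = 3). The feedback inhibitor SPRY4 measured 13.8 and 9.62 CPM in the LTED-A samples and 49.7, 49.8 and 49.8 CPM in LTED-B (2.10 ± 0.16, edgeR adjusted p = 7.11e-06). FGFR1, which is highly expressed in all groups, was called at 0.67 ± 0.099 (edgeR adjusted p = 6.67e-04) but lost its call without any 1 LTED sample and without SUM44F replicate 1 or 2, at log2 fold changes of 0.65 to 0.69. In all, 3 of 19 FGF genes were called higher in LTED-B and 2 higher in LTED-A.

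The ERBB receptor ligands EGF and TGFA were called in opposite directions. EGF measured 6.03 and 6.73 CPM in the LTED-A samples and 0.995, 1.29 and 0.963 CPM in LTED-B (-2.57 ± 0.16, edgeR adjusted p = 1.99e-06). TGFA measured 11.99 and 13.7 CPM in the LTED-A samples and 38.5, 38.1 and 36.7 CPM in LTED-B (1.55 ± 0.086, edgeR adjusted p = 7.40e-07), and these were the only called members of 12 ERBB genes tested. ERBB2 at -0.44 ± 0.085 (edgeR adjusted p = 0.00366) and IGF1R at -0.63 ± 0.18 (edgeR adjusted p = 0.0266) were not called. IGF1R measured 317 and 181 CPM in the LTED-A samples and 162, 170.2 and 151 CPM in LTED-B. LTED-A replicate 1 stood above the others, and without LTED-A replicates 2 and 3 the gene was called, at -0.97. IRS1, the adaptor of insulin and IGF receptors, was the only called member of 16 in its list. It measured 4.86 and 4.08 CPM in the LTED-A samples and 1.57, 1.59 and 1.66 CPM in LTED-B (-1.46 ± 0.12, edgeR adjusted p = 1.11e-05), and SUM44F, at 44.9 ± 3.73 CPM (SD, n = 3), was above both variants. INPP4B, a phosphatase that restrains PI3K signalling, measured 83.0 and 92.9 CPM in the LTED-A samples and 38.3, 36.6 and 35.3 CPM in LTED-B (-1.26 ± 0.075, edgeR adjusted p = 1.24e-06). Among other receptor tyrosine kinases 5 of 26 were called higher in LTED-B and 3 higher in LTED-A, with the ephrin receptor gene EPHB2 among the former (2.03 ± 0.24) and EPHA4 among the latter (-2.55 ± 0.32). Both are under 6 CPM in every sample, and each lost its call without either LTED-A sample and without LTED-B replicate 3, and EPHA4 also without LTED-B replicate 1, at log2 fold changes of 1.92 to 2.13 and -2.80 to -2.26.

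WNT signals pass through Frizzled receptors to beta-catenin, and AXIN2 and NKD1 are feedback genes that it induces. NKD1 measured 0.571 and 0.730 CPM in the LTED-A samples and 5.34, 4.78 and 4.91 CPM in LTED-B (2.91 ± 0.23, edgeR adjusted p = 8.26e-06). AXIN2 measured 0.720 and 0.607 CPM in the LTED-A samples and 2.75, 2.83 and 2.74 CPM in LTED-B (2.08 ± 0.25, edgeR adjusted p = 1.52e-04). The receptor gene FZD2 measured 0.546 and 0.387 CPM in the LTED-A samples and 3.26, 3.25 and 3.86 CPM in LTED-B (2.94 ± 0.22, edgeR adjusted p = 4.91e-06). All LTED-A samples were under 1 CPM for these 3 genes, and SUM44F lay at 2.29 ± 0.499 CPM, 4.03 ± 1.10 CPM and 3.05 ± 0.252 CPM (SD, n = 3). The call of AXIN2 was lost without either LTED-A sample, at log2 fold changes of 1.95 to 2.16. In the list as a whole 4 of 35 genes were called higher in LTED-B and 1, the ubiquitin ligase gene ZNRF3, higher in LTED-A (-0.91 ± 0.094), and the list median was -0.0056. WNT4, a ligand known from lobular cells, was not called (-0.30 ± 0.14, edgeR adjusted p = 0.179).

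The BMP and TGF-beta list had 5 genes called higher in LTED-B and 5 higher in LTED-A of 36 tested. The BMP receptor gene BMPR1B measured 16.6 and 18.5 CPM in the LTED-A samples and 71.1, 69.6 and 65.7 CPM in LTED-B (1.97 ± 0.14, edgeR adjusted p = 4.95e-06) and was at 0.518 ± 0.178 CPM (SD, n = 3) in SUM44F. Both variants were above the parental level. The decoy receptor gene BAMBI measured 21.3 and 24.1 CPM in the LTED-A samples and 82.2, 84.2 and 83.0 CPM in LTED-B (1.87 ± 0.09). The inhibin subunit gene INHBB measured 89.0 and 103 CPM in the LTED-A samples and 23.05, 24.4 and 24.9 CPM in LTED-B (-1.99 ± 0.082). In the Notch list the ligand gene DLL1 was higher in LTED-B (2.27 ± 0.15), and HEY2 (-2.48 ± 0.20) and the glycosyltransferase gene LFNG (-1.24 ± 0.10) were higher in LTED-A, with 17 of 20 members not called.

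Of 21 cholesterol biosynthesis genes, 1 was called, MSMO1 (-0.60 ± 0.092), and its call was lost on omitting any 1 sample other than LTED-A replicate 1 (log2 fold changes -0.78 to -0.41). SREBF1, an activator of fatty acid synthesis genes, was at -0.033 ± 0.11 (edgeR adjusted p = 0.883) and the desaturase gene SCD at 0.0029 ± 0.11 (edgeR adjusted p = 0.991). SREBF2, the main activator of cholesterol synthesis genes, measured 259 and 179.6 CPM in the LTED-A samples and 99.9, 107 and 104 CPM in LTED-B (-1.08 ± 0.15, edgeR adjusted p = 3.96e-04). Its call was lost without LTED-A replicate 1 or any 1 LTED-B library, at log2 fold changes of -1.31 to -0.81. The regulator INSIG2, which retains the SREBP complex, was higher in LTED-A as well (-1.14 ± 0.097, edgeR adjusted p = 1.47e-05).

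All 4 called genes of 19 in the fatty acid synthesis list were higher in LTED-A, the elongase genes ELOVL2 (-1.86 ± 0.10), ELOVL4 (-3.87 ± 0.45) and ELOVL6 (-1.11 ± 0.088) and SLC25A1, while the list median was -0.12. ELOVL4 lost its call without any 1 LTED sample (log2 fold changes -4.11 to -3.58). Of 35 genes of fatty acid oxidation and ketone metabolism, 7 were called higher in LTED-B and 1 higher in LTED-A (list median 0.14). OXCT1, which starts ketone body use, measured 61.9 and 78.4 CPM in the LTED-A samples and 7.48, 7.68 and 7.22 CPM in LTED-B (-3.24 ± 0.11, edgeR adjusted p = 2.67e-08). SUM44F measured 12.9 ± 0.319 CPM (SD, n = 3) and lay between the variants. The thiolase gene ACAA2 (1.23 ± 0.084) and the peroxisomal oxidase gene ACOX2 (1.23 ± 0.14) were also higher in LTED-B, ACOX2 not without LTED-A replicate 1 (adjusted p = 0.00262), and CPT1A, the gate of mitochondrial fatty acid import, was not called (-0.13 ± 0.097).

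Called shares were 4.17% for the E2F activation signature, 8.82% for DNA replication and 5.88% for mitosis. Those of all genes tested and of genes of at least 5 CPM were 7.42% and 12.6%. In the E2F activation signature, 1 of 24 genes was called, FKBP5 (-0.66 ± 0.096), better known as a steroid-induced chaperone, and the list median was 0.00024. The signature was taken as the study used it on these cells, so it is not independent evidence of a direction. The call of FKBP5 was lost without any 1 LTED sample or SUM44F replicate 2 (log2 fold changes -0.72 to -0.60). Of 34 DNA replication and 34 mitosis genes, 3 and 2 were called, and 4 of these, RRM2, CDC45, MCM5 and BIRC5, lie in the stretches. MKI67 measured 344 and 199.8 CPM in the LTED-A samples and 205, 202 and 188 CPM in LTED-B and was not called (-0.46 ± 0.18, edgeR adjusted p = 0.104), and neither was TOP2A (0.26 ± 0.11). Without LTED-A replicates 2 and 3 MKI67 was called, at -0.79.

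Among G1 regulators 5 of 31 were called higher in LTED-B and 2 higher in LTED-A. CDK6, a kinase that phosphorylates RB, measured 76.4 and 85.8 CPM in the LTED-A samples and 26.3, 25.6 and 24.0 CPM in LTED-B (-1.68 ± 0.076, edgeR adjusted p = 2.00e-07) and 67.8 ± 1.73 CPM (SD, n = 3) in SUM44F. Cyclin E1, CCNE1, measured 3.25 and 3.47 CPM in the LTED-A samples and 9.86, 9.86 and 9.89 CPM in LTED-B (1.55 ± 0.12, edgeR adjusted p = 6.00e-06). MYCL measured 0.571 and 0.581 CPM in the LTED-A samples and 3.17, 2.80 and 3.22 CPM in LTED-B (2.41 ± 0.21, edgeR adjusted p = 1.69e-05). MYC was not called (-0.51 ± 0.17, edgeR adjusted p = 0.0475). Of the 27 death genes tested 2 were called (7.41%, beside 7.42% of all genes tested), BOK and HRK, higher in LTED-B. BOK, a pro-apoptotic BCL2 relative, measured 2.06 and 1.97 CPM in the LTED-A samples and 12.1, 12.4 and 12.7 CPM in LTED-B (2.63 ± 0.17). The call of HRK (0.83 ± 0.12) was lost without any 1 LTED sample or SUM44F replicate 2 (log2 fold changes 0.81 to 0.86).

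Calcium-binding S100 genes had the highest called share of any list, 4 higher in LTED-B and 4 higher in LTED-A of 15 tested. S100A8, the partner of S100A9 in calprotectin, measured 26.6 and 36.8 CPM in the LTED-A samples and 111, 107 and 108 CPM in LTED-B (1.78 ± 0.13). S100A7 measured 0.670 and 0.739 CPM in the LTED-A samples and 5.25, 5.55 and 5.69 CPM in LTED-B (2.94 ± 0.15). For both, SUM44F was above the variants, at 536 ± 28.9 CPM and 237 ± 29.2 CPM (SD, n = 3). S100A10, a partner of annexin A2, went the other way at 36.5 and 41.7 CPM in the LTED-A samples and 3.86, 4.56 and 4.03 CPM in LTED-B (-3.24 ± 0.10, edgeR adjusted p = 2.28e-08). Keratins were called in 1 direction: 4 of 15 were higher in LTED-A, led by KRT80 at 99.8 and 80.6 CPM in the LTED-A samples and 22.1, 23.6 and 23.3 CPM in LTED-B (-1.97 ± 0.096). KRT7 measured 120 and 122 CPM in the LTED-A samples and 37.5, 39.7 and 41.2 CPM in LTED-B (-1.62 ± 0.13). It overlaps KRT86, also called (-1.01 ± 0.12), on the same strand, so their counts may be shared. KRT86 lost its call without LTED-A replicate 1 or LTED-B replicate 1 or 2 (log2 fold changes -1.08 to -0.92). The luminal keratin KRT8 measured 2498 and 2922 CPM in the LTED-A samples and 1236, 1346 and 1419 CPM in LTED-B (-1.02 ± 0.15, edgeR adjusted p = 5.87e-04) but lost its call without any 1 LTED sample or SUM44F replicate 2 (log2 fold changes -1.15 to -0.90).

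Cell adhesion and matrix genes were divided. E-cadherin, CDH1, whose loss defines lobular cancer, was near equal at 16.5 and 14.6 CPM in the LTED-A samples and 13.8, 15.5 and 15.0 CPM in LTED-B (-0.073 ± 0.10, edgeR adjusted p = 0.686). COL12A1, a fibril-associated collagen, measured 76.4 and 61.6 CPM in the LTED-A samples and 6.18, 5.10 and 4.71 CPM in LTED-B (-3.71 ± 0.14, edgeR adjusted p = 5.32e-08). Fibronectin, FN1, measured 16.8 and 15.4 CPM in the LTED-A samples and 74.2, 75.7 and 70.2 CPM in LTED-B (2.19 ± 0.14, edgeR adjusted p = 1.81e-06). LAMB1, a laminin beta chain, measured 27.0 and 27.6 CPM in the LTED-A samples and 86.5, 87.9 and 85.4 CPM in LTED-B (1.66 ± 0.081). The collagen receptor gene ITGA2 measured 86.3 and 93.7 CPM in the LTED-A samples and 37.6, 34.4 and 33.1 CPM in LTED-B (-1.36 ± 0.083). In all 6 of 47 collagen, laminin and integrin genes were called higher in LTED-B and 5 higher in LTED-A. The protocadherin gene PCDH7 was low in both variants and lower in LTED-B (-3.16 ± 0.20), against 102 ± 9.44 CPM (SD, n = 3) in SUM44F. Of 18 HOX genes tested, 4 were called higher in LTED-A, all of them in the HOXB cluster, among them HOXB5 (-2.51 ± 0.27) and HOXB6 (-2.04 ± 0.19), which overlap HOXB3 on the same strand. HOXC13 was called higher in LTED-B (1.07 ± 0.13), a call lost without any 1 LTED sample (log2 fold changes 1.04 to 1.10). The homeobox gene LMX1B measured 333 and 264 CPM in the LTED-A samples and 69.7, 79.0 and 78.5 CPM in LTED-B (-1.98 ± 0.12).

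Transport and metabolic genes added further contrasts. Of 26 amino acid transporter genes 6 were called higher in LTED-A and 1 higher in LTED-B. The cationic amino acid transporter gene SLC7A2 measured 52.1 and 54.7 CPM in the LTED-A samples and 9.17, 9.34 and 9.62 CPM in LTED-B (-2.51 ± 0.082, edgeR adjusted p = 2.67e-08). The aldo-keto reductases AKR1C2 and AKR1C3, which reduce steroids and are closely similar in sequence, were higher in LTED-B at 2.41 ± 0.16 and 2.25 ± 0.14, and their counts may be shared. UGT1A6, a glucuronosyltransferase whose locus shares exons with 8 annotated relatives, measured 24.1 and 27.7 CPM in the LTED-A samples and 2.65, 2.40 and 2.48 CPM in LTED-B (-3.37 ± 0.11). Of the 33 glycolysis and hypoxia genes 5 were called higher in LTED-A, among them the angiogenic factor VEGFA at 121 and 126 CPM in the LTED-A samples and 48.5, 49.8 and 49.4 CPM in LTED-B (-1.33 ± 0.067), and 3 higher in LTED-B. The 13 protein-coding genes of the mitochondrial genome had a list median of -1.23 with 0 called in edgeR, 10 at an unadjusted p under 0.05 and 1 called in DESeq2, beside 34.6% and 5.39% of all genes tested in each. Mitochondrial transcripts took 2.60% of LTED-A replicate 1, 1.90% and 1.90% of replicates 2 and 3, and 1.58% to 1.86% of the LTED-B libraries.

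Of 12 MHC class II genes and regulators tested, 0 were called in edgeR, 7 had an unadjusted p under 0.05, and 2 passed the same thresholds in DESeq2. Over all genes the shares were 34.6% and 5.39%. HLA-DRA, which encodes the alpha chain of HLA-DR, was at 1.79 and 1.81 CPM in the LTED-A samples and 0.694, 0.446 and 0.536 CPM in LTED-B (-1.70 ± 0.33, edgeR adjusted p = 0.00344), and among single omissions passed the threshold without SUM44F replicate 1, at -1.70. CIITA, the activator of these genes, was at -0.26 ± 0.13 (edgeR adjusted p = 0.190). Of 39 interferon response genes 3 were called (7.69%, beside 7.42% of all genes tested), a share near that of all genes. They were HERC5 (2.53 ± 0.19) and DDX60 (1.71 ± 0.10), higher in LTED-B, and the chemokine gene CXCL10, higher in LTED-A (-2.19 ± 0.17). TNFAIP3, an inhibitor of NF-kappaB signalling inside the chromosome 6 stretch, measured 11.7 and 10.8 CPM in the LTED-A samples and 28.8, 29.0 and 26.8 CPM in LTED-B (1.33 ± 0.092). The chemokine receptor gene ACKR3 measured 16.4 and 19.1 CPM in the LTED-A samples and 4.40, 4.73 and 4.98 CPM in LTED-B (-1.91 ± 0.11).

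**Figure D5:**
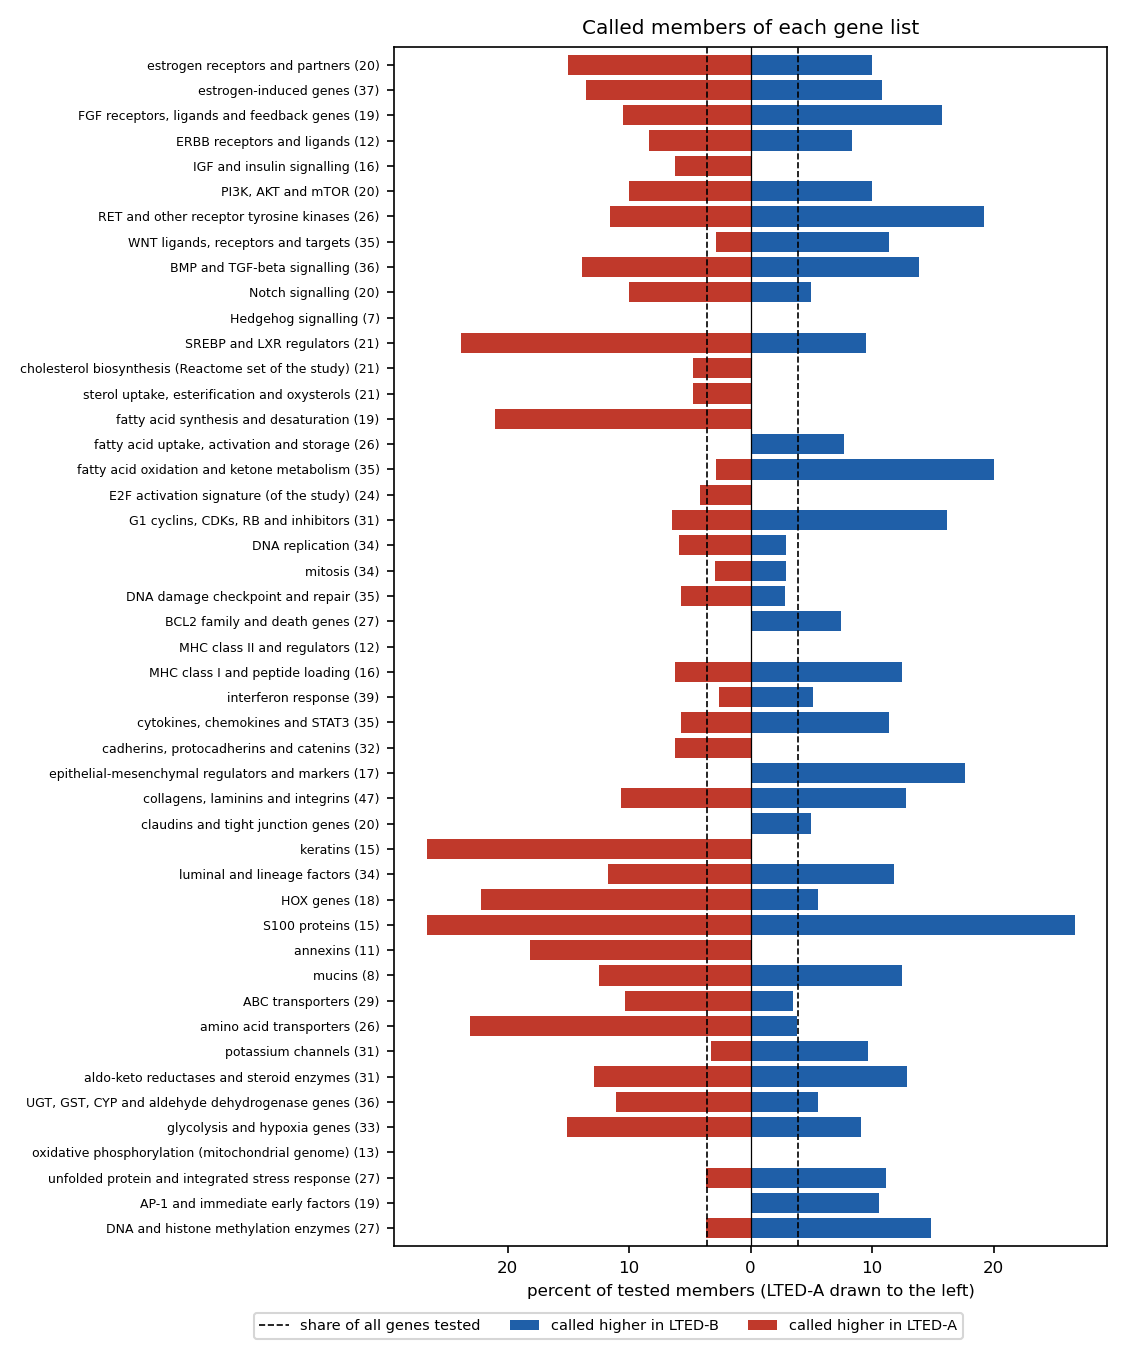
Share of the tested members of each list that was called higher in LTED-B (blue, to the right) or higher in LTED-A (red, to the left), in percent, with the number tested in brackets and dashed lines at the 3.86% and 3.56% of all genes tested. The called keratins and fatty acid synthesis genes were all higher in LTED-A, and S100 genes were called in both directions.

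The SUM44F level was set beside those of both variants for every called gene. Of the genes called higher in LTED-B, the SUM44F mean lay above both variants for 271, below both for 226 and between them for 539. Of those called higher in LTED-A, it lay above both for 272, below both for 207 and between them for 475. Where it lay between, SUM44F was on the log2(CPM + 0.1) scale nearer to LTED-A for 279 and nearer to LTED-B for 260 of the former, and nearer to LTED-A for 214 and to LTED-B for 261 of the latter. These are placements of means with no test, and both variants share the SUM44F libraries.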

How the data were processed

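Total RNA was made into ribosomal RNA depleted, stranded TruSeq libraries and sequenced. Per the study's methods and processing notes, the authors used Salmon (version 0.6.0), with hg38 and the annotation of Ensembl release 82, and deposited estimated counts per gene, one table of 60619 genes and 27 libraries. The strand setting of the quantification is not given in the sources used here. Salmon divides reads that fit several transcripts by probability, so near-identical and overlapping genes share counts.

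From the deposited estimated counts, replicates 2 and 3 of LTED-A were averaged, since they differed by less than sampling noise in a chi-square test, and values were rounded to whole counts. Groups came from the labels. The 8 samples of SUM44F, LTED-A and LTED-B were fitted together, SUM44F entering for the estimate of spread, after edgeR's filter on low counts and TMM scaling. LTED-B was tested against LTED-A with edgeR's quasi-likelihood test, and p-values were adjusted by Benjamini-Hochberg over all 26834 genes tested. Calls needed a fold above 1.5 and an adjusted p under 0.001. CPM values are counts per 1000000 at TMM-scaled library sizes, except the cell type marker levels given with the library depths, which are per 1000000 unscaled counts. Single-count ratios carry 95% intervals that cover counting error only, and under 3 counts a level was treated as not measurable.

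Symbols, positions and gene types were joined by Ensembl identifier from GENCODE v44 on GRCh38 for 56434 genes, and miRNA and promoter sequences came from RefSeq on GRCh38.p14. The text names the 12 protein-coding and 3 lncRNA genes with the largest called change in each direction (at least 5 CPM in the higher group and no overlap between single LTED-A and LTED-B libraries), the 4 called genes of each list with the largest changes, a preset group of single genes, and 3 genes by level and 3 by change in each stretch. Members, lists and settings were chosen with earlier results of these data known. Alternatives covered the filter, scaling, DESeq2, thresholds, thinned counts, the samples in the fit, the averaging, the window size, and each sample left out in turn. A few genes that the rule names are left unreported here. Versions were R 4.3.3, edgeR 4.0.16, limma 3.58.1, DESeq2 1.42.0, Python 3.11.15, pandas 2.3.3, numpy 2.4.6, scipy 1.17.1 and matplotlib 3.10.9. The other 18 libraries of the series were not analysed here, except that SUM44PE was added in 1 alternative.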

Additional observations from a re-analysis of the deposited data

Results flagged for a closer look

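Among the genes with the largest changes, those listed here had the variants on opposite sides of SUM44F: every LTED-A sample lay on one side of every SUM44F library and every LTED-B library on the other. The difference between the variants was tested by edgeR for each, and all were called. On the side higher in LTED-B the log2 fold changes of LTED-B over LTED-A were 5.34 for TRIM55, 5.14 for PLPPR3, 4.55 for BHLHA15, 4.54 for CIB2, 4.21 for L3MBTL3 and 1.66 for MIR17HG. On the side higher in LTED-A they were -5.98 for H3C11, -5.13 for CPB1, -4.99 for NPY5R, -4.99 for NPY1R, -4.84 for REPS2, -4.70 for ERVMER34-1, -3.97 for SCUBE3, -3.88 for CDSN, -3.74 for PCOTH and -3.63 for ENSG00000251567. The separation from SUM44F on each side was not tested, and for REPS2 the LTED-A samples, at 608 and 625 CPM, lay close above the SUM44F libraries at 495, 529 and 489 CPM. On the low side, BHLHA15 was at 0.199 and 0.220 CPM in LTED-A (8 to 25 counts), close below SUM44F at 0.283, 0.371 and 0.258 CPM. ERVMER34-1 was at 0.181, 0.248 and 0.274 CPM in LTED-B (6 to 25 counts), close below SUM44F at 0.697, 0.312 and 0.302 CPM.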

How the results depend on the processing

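Every alternative kept the direction of each called gene it also called. Counts higher in LTED-B and in LTED-A stayed within 1.5 times of those reported without a filter, with at least 10 counts in every sample, with RLE factors, DESeq2, thinned counts, no fold minimum, LTED-A and LTED-B alone in the fit, SUM44PE added, or LTED-A replicate 2 taken in place of the mean or replicates 2 and 3 taken apart. They moved further with a fold of 2 (601 and 589) and an adjusted p of 0.05 (1887 and 1994). With 1 sample left out, SUM44F libraries included, the counts ran from 503 to 1055 and from 521 to 1029. Windows of 20 genes gave 17 stretches, windows of 80 gave 6, genes of at least 1 CPM gave 11, and a median beyond 0.3 gave 14. Windows of 80 left out both chromosome 2 stretches, and windows of 20 ended the chromosome 6 stretch higher in LTED-B before ESR1. With a replicate block and LTED-A replicate 2 in place of the mean the counts were 745 and 626. Correlations of same-numbered deviations between the variants were -0.076, -0.25 and 0.15, and that of LTED-A replicate 1 with LTED-B replicate 2 was 0.25. LTED-A replicates 2 and 3 were nearly alike, so these values are not independent and cannot decide whether the replicate numbers pair the samples. Without LTED-A replicates 2 and 3 the log2 fold changes of the uncalled TFF1 and EIF3L turned to 0.074 and 0.065. That of GATA3, also uncalled, was -0.24 without SUM44F replicate 3 and turned to 0.11 without LTED-A replicate 1. The uncalled PGR turned to 0.079 without LTED-A replicate 1 and 0.035 without LTED-B replicate 2, SREBF1 turned to 0.0055 without LTED-B replicate 1, and SCD, near 0, took both signs (-0.056 to 0.053). Of 198 named calls, 134 held in every omission and 64 were lost in at least 1, with adjusted p of at most 0.0148 and none turning sign. LTED-A rests on 2 samples from wells of 1 culture, and genes with few counts there, such as LAMA2, are limited by depth.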
